A study of Homo sapiens with 15 samples.

Results

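The aminoacyl-tRNA synthetase genes were followed in HCT116, a human colorectal carcinoma cell line. The members were all introns whose gene name was 1 of 37 nuclear synthetase genes, cytosolic or mitochondrial: 638 of the 111143 introns listed for any clone, and 37 of 11713 gene names. Of these, 527 introns were listed for every clone, against 83066 of all introns. The study sequenced polyadenylated RNA from 4 bktRNA1-deficient clones, named KO-1 to KO-4, and from wild-type HCT116 cells (WT), with 3 libraries per line from separate experiments. The labels give no treatment and do not describe bktRNA1 or how the clones were made. The genotype rests on those labels, since bktRNA1 itself was not measured here. Each KO line is 1 clone, and all 4 clones were compared with the same 3 WT libraries, so a difference belongs to that clone and the 4 comparisons are not independent of each other. Libraries are numbered by the order in which the deposited lists give them, which pairs nothing.

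An aminoacyl-tRNA synthetase joins an amino acid to its matching tRNA, the step that fixes the genetic code before translation. Human cells use 1 set of these enzymes in the cytosol and another, also encoded in the nucleus, in mitochondria, and glycyl- and lysyl-tRNA synthetase serve both places from 1 gene each. Several cytosolic enzymes sit together in the multisynthetase complex, which is held by the scaffold proteins AIMP1, AIMP2 and EEF1E1. By fold, the enzymes fall into class I and class II. Introns are removed by the major spliceosome or, for a rare class called U12-type, by the minor spliceosome, which reads a long conserved start and branch site.

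The results below turn on the paired genes HARS and HARS2, the cytosolic and mitochondrial histidyl-tRNA synthetases, which lie head to head on opposite strands of chromosome 5. From HARS exon 3 and HARS2 exon 4 on, their inner exons matched in length in order, so HARS intron 4 aligned with HARS2 intron 5, and identity over these 10 exon pairs ran from 65.8% to 85.6%. The exons beside the introns with the largest retention changes are shown first, from GENCODE 29 transcripts on GRCh38, 5′ to 3′, with the bases that differ within each pair in capitals. HARS exon 4 lies at chr5:140679788-140679883 and HARS exon 5 at chr5:140679002-140679127, both on the minus strand. HARS2 exon 5 lies at chr5:140694185-140694280 and HARS2 exon 6 at chr5:140695508-140695633, both on the plus strand. All 4 exons are coding.
HARS exon 4: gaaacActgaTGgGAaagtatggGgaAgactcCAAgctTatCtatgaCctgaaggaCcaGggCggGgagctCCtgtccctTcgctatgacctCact
HARS2 exon 5: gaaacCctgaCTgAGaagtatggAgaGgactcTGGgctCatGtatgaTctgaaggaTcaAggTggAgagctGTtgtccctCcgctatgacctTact
HARS exon 5: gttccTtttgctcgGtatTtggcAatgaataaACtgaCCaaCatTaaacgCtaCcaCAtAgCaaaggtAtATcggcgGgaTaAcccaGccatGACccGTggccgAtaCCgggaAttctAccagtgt
HARS2 exon 6: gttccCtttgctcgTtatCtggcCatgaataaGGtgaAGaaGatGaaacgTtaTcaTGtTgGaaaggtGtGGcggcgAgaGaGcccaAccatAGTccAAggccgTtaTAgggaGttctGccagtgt
The first of these pairs was 78.1% identical over 96 bases and the second 73.8% over 126 bases.

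The starts of the introns in question follow, also from GENCODE 29 transcripts that keep the intron, with the first 8 bases in capitals because these are the bases compared with the U12-type starts GTATCCTT and ATATCCTT.
HARS intron 3: GTGAGGAAtggg
HARS intron 4: GTATCTTTctaa
HARS intron 5: GTGAGTGTtggg
HARS2 intron 7: GTGAGGCCaggg
MARS intron 14: GTAAGTACcctg
GARS intron 11: ATATCCTTtctg
HARS intron 4 was within 1 mismatch of a U12-type start and GARS intron 11 matched one. They were the only members within 1 mismatch among the 156 of 638 member introns whose first 8 bases could be read. Over all genes, 273 of 30484 introns read were within 1 mismatch (0.896%). The starts of HARS2 introns 5 and 6 could not be read, so these introns were not compared. The last 40 bases of GARS intron 11 were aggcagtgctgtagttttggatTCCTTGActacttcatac, where the capitals mark the stretch nearest to the branch site TCCTTAA. A match is a description of the letters. GARS intron 11 (chr7:30621501-30622316, plus strand), shown for its start and chosen after its values were seen, had low retention in every library: its level was 1.11%, 0.296% and 1.05% in KO-1, 0.495%, 0.503% and 0.539% in KO-2, 0.840%, 0.835% and 0.200% in KO-3, 0.307%, 0.729% and 0.392% in KO-4, against 0.532%, 0.181% and 0.891% in WT. The clones and WT overlapped throughout, and the only comparison with enough reads, KO-3 against WT, gave a log2 odds change of 0.37 ± 0.53 (SE; adjusted p = 0.934, quasi-binomial test).

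The retention level is the percentage of transcripts at an intron that keep it, from the reads across the exon-intron junctions and the reads across the spliced junction, each divided by its effective length. Each library held 17287797 to 35348260 such junction reads in introns common to all lists, of which 12.3% to 13.7% were retained reads. Synthetase introns took 0.694% to 0.893% of all spliced reads. The WT libraries differed, with 12.7%, 12.3% and 13.3% retained reads in the order listed. The second WT library was the lowest of all libraries, and the third lay within the range of the clones. The value of the third is given wherever it overlaps with a clone. Keratin and EPCAM reads of the epithelial list were present (5 of 7 markers passed the filter of 50 reads, CDH1 and CLDN4 did not), none of 4 leukocyte markers passed it, and of 4 fibroblast markers COL1A1 did. Of the 5 epithelial markers, 1 rose and 2 fell in KO-1, KO-2 and KO-4, and 4 rose in KO-3, with median log2 changes of -0.06, -0.14, 0.46 and -0.14 in KO-1 to KO-4 in turn. EPCAM stood at -1.06, -0.99, 0.14 and -0.59 and the keratin KRT19 at 0.24, 0.50, 0.46 and 0.79, each called apart from EPCAM in KO-3. COL1A1 rose in KO-4 (0.65, adjusted p = 0.00121, limma). The part of these differences in the results was not tested.

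In WT cells most synthetase introns were spliced almost completely. The median retention level over the 527 introns listed for every clone was 0.600% (quartiles 0.148% and 2.44%), against 1.27% over all introns. It was under 1% for 315 of them and over 50% for 35, which is 6.64% of the members, against 11.6% of all introns. Of those 35, 32 have an annotated exon inside them, so their retained reads can come from another transcript of the same gene. The 6 highest were HARS2 chr5:140695846-140696028, MARS chr12:57515015-57515216, QARS chr3:49099854-49099993, LARS chr5:146129082-146130017, QARS chr3:49098259-49098372 and WARS chr14:100361903-100369086, all of this kind. These held 99.8% to 100% in WT and 97.4% to 100% as clone means.

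Intron retention in the clones was compared with WT to ask whether loss of bktRNA1 went with unspliced synthetase RNA. Retention was called higher in 8 listed synthetase introns of 3 genes, HARS, HARS2 and MARS (methionyl-tRNA synthetase, a member of the complex), and lower in none. Of the 8, 1 spans HARS2 exon 8, so its retained reads can come from RNA that includes that exon. These calls depend on the test: limma on log2 odds called no member intron in any clone (0 of 114, 133, 140 and 137 tested), with 16, 17, 6 and 16 higher at an unadjusted p under 0.05. That test called few introns of any gene, so its 0 says little about the members. Over all introns it called 41 of 18804, 7 of 23669, 12 of 21865 and 8 of 24269 higher in KO-1 to KO-4 in turn. Apart from the MARS intron, the called introns were HARS introns 3 to 5 and, in HARS2, introns 5 to 7 and the intron across exon 8. Called means an adjusted p under 0.05 in a quasi-binomial test with Benjamini-Hochberg adjustment over all introns tested, and an intron was tested where both kinds of reads averaged 10 or more over the 6 libraries. In KO-1, 5 of 114 member introns tested were higher (4.39%), against 1.29% of all introns. In KO-2, 5 of 133 were higher (3.76%), against 1.3% of all. In KO-3, 1 of 140 was higher (0.714%), against 0.558% of all, and in KO-4, 6 of 137 were higher (4.38%), against 1.54% of all. No member was called lower, where all introns gave 0.175%, 0.304%, 0.155% and 0.429% in KO-1 to KO-4 in turn. At an unadjusted p under 0.05, 0, 1, 2 and 1 members were lower and 19, 19, 12 and 29 were higher. The members that passed the read filter had a median log2 odds change of 0.31, 0.28, 0.14 and 0.38, beside 0.13, 0.10, 0.02 and 0.17 over all introns tested. The p-values measure the spread between 3 libraries of 1 clone and 3 of WT.

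HARS intron 4 (chr5:140679128-140679787, 660 bases, between coding exons, with the start GTATCTTT shown above) was the member called in all 4 clones. Its retention level was 4.69%, 5.96% and 5.30% in KO-1, 4.95%, 2.87% and 3.36% in KO-2, 4.79%, 4.17% and 3.60% in KO-3, 3.89%, 5.93% and 3.70% in KO-4, against 1.16%, 1.94% and 1.54% in WT. All 12 clone libraries lay above all 3 WT libraries. KO-1 averaged 5.31 ± 0.634%, KO-2 averaged 3.73 ± 1.09%, KO-3 averaged 4.19 ± 0.595% and KO-4 averaged 4.51 ± 1.23%, against a WT mean of 1.55 ± 0.389% (SD, n = 3 each). The log2 odds change was 1.81 ± 0.35 in KO-1 (SE; adjusted p = 0.000232), 1.27 ± 0.35 in KO-2 (adjusted p = 0.0267), 1.47 ± 0.34 in KO-3 (adjusted p = 0.00622) and 1.56 ± 0.34 in KO-4 (adjusted p = 0.00117). The depth behind these levels was modest: 12, 24 and 15 retained reads in WT, beside 511, 607 and 478 spliced reads, and 29 to 57 retained reads per clone library. Leaving out 1 library ended the KO-2 call (without the first KO-2 library, 1.02, adjusted p = 0.284; without the first WT library, 1.10, adjusted p = 0.201), the KO-3 call (without the first KO-3 library, 1.35, adjusted p = 0.123; without the first WT library, 1.30, adjusted p = 0.107) and the KO-4 call (without the second KO-4 library, 1.31, adjusted p = 0.0645). The KO-1 call held without each library. With limma on log2 odds this intron was called in none of the 4 clones (adjusted p = 0.0606 to 0.307).

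The introns on both sides of it were also higher. HARS intron 5 (chr5:140678016-140679001, 986 bases) stood at 11.1%, 11.9% and 11.1% in KO-1, 12.2%, 10.2% and 10.2% in KO-2, 9.35%, 8.30% and 7.40% in KO-3, 13.3%, 12.4% and 8.20% in KO-4, against 4.80%, 3.58% and 8.06% in WT. KO-1, KO-2 and KO-4 lay above WT, and the lowest KO-3 library lay below the third WT library. The log2 odds change was 1.20 ± 0.27 in KO-1 (SE; adjusted p = 0.00409), 1.12 ± 0.25 in KO-2 (adjusted p = 0.00361) and 1.20 ± 0.25 in KO-4 (adjusted p = 0.000979), and KO-3, at 0.72 ± 0.26 (adjusted p = 0.312), was not called. The KO-1 call was lost without the second KO-1 library (1.15, adjusted p = 0.0795) or the second WT library (0.91, adjusted p = 0.0601), the KO-2 call without the second WT library (0.83, adjusted p = 0.112), and without the third WT library KO-3 was called too (1.10, adjusted p = 0.0138).

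HARS intron 3 (chr5:140679884-140683099, 3216 bases) stood at 3.25%, 2.10% and 3.27% in KO-1, 4.43%, 2.91% and 2.82% in KO-2, 3.81%, 1.99% and 3.12% in KO-3, 2.50%, 2.38% and 2.93% in KO-4, against 1.26%, 0.568% and 1.83% in WT. No clone library fell into the WT range, and only KO-2 passed the test, at 1.59 ± 0.40 (SE; adjusted p = 0.00988). That call was lost without the first KO-2 library (1.35, adjusted p = 0.144) or the second WT library (1.17, adjusted p = 0.179). The values in KO-1, KO-3 and KO-4 were 1.34, 1.39 and 1.20 (adjusted p = 0.110, 0.0933 and 0.104), and each was called without the third WT library. The authors' deposited FDR, from a test not stated, was under 0.05 for this intron in every clone (4.30e-05 to 0.0212). Farther along HARS, introns 2, 6 and 10 had enough reads and were called in no clone. In KO-1 to KO-4 in turn, intron 2 stood at 1.35, 0.46, 0.72 and 0.81 (adjusted p = 0.136 to 0.781), intron 6 at 0.32, 1.01, 0.78 and 0.91 (adjusted p = 0.0916 to 0.831), and intron 10 at 0.32, 0.23, -0.00 and 0.53 (adjusted p = 0.420 to 0.999). Some of these changes were about as large as called ones, so the data do not confine the rise to introns 3 to 5.

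**Figure D1:**
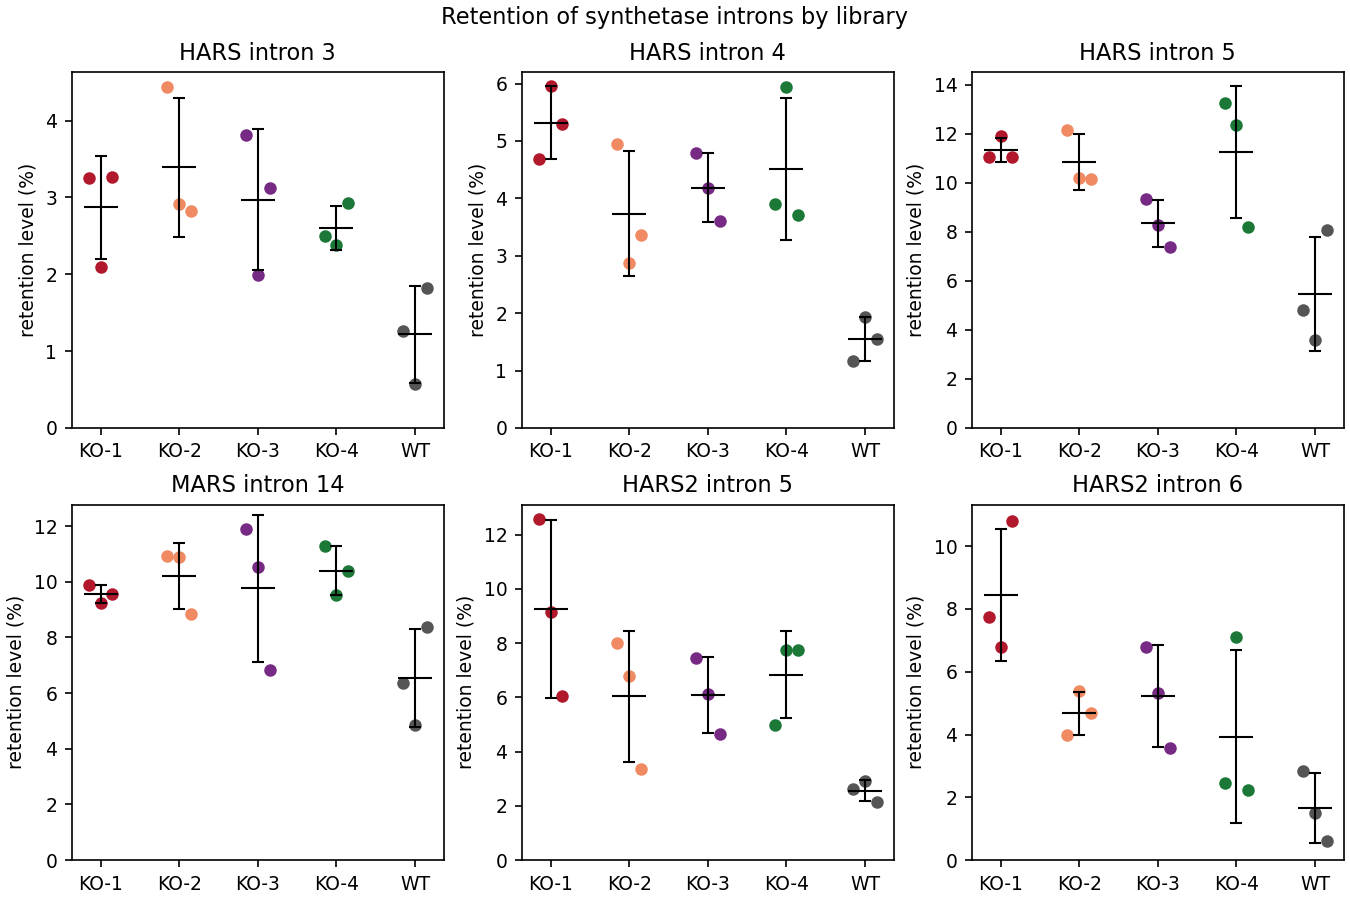
Retention level in percent (y axis, from 0, each panel with its own scale) of 6 synthetase introns in each library, by line (x axis); points are libraries, the horizontal bar is the mean and the whisker 1 SD (n = 3). For HARS introns 3 and 4 and HARS2 intron 5 all clone libraries lie above the WT libraries, and for HARS intron 5, MARS intron 14 and HARS2 intron 6 some clone and WT libraries overlap.

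In HARS2 the called introns 5 to 7 align with HARS introns 4 to 6, and a longer listed intron was called too. HARS2 introns 2, 8, 9 and 13 were called in no clone. Intron 2 stood at -0.29, 0.11, 0.61 and 1.04 in KO-1 to KO-4 in turn (adjusted p = 0.117 to 0.955). Intron 8 stood at 0.47, 0.62, 0.10 and 0.57 (adjusted p = 0.193 to 0.958), and intron 13 at 0.08, 0.71, -0.32 and 0.53 (adjusted p = 0.283 to 0.970). HARS2 introns 3 and 4 had too few reads to test. The data thus do not confine the rise to introns 5 to 7. HARS2 intron 5 (chr5:140694281-140695507, 1227 bases, aligned with HARS intron 4) stood at 12.6%, 9.14% and 6.05% in KO-1, 7.99%, 6.80% and 3.35% in KO-2, 7.46%, 6.13% and 4.65% in KO-3, 4.99%, 7.76% and 7.76% in KO-4, against 2.61%, 2.92% and 2.15% in WT. All clone libraries lay above WT. It was called in KO-1 (2.0 ± 0.41, SE; adjusted p = 0.000578) and KO-4 (1.46 ± 0.39, adjusted p = 0.0145), and stood at 1.24 (adjusted p = 0.124) in KO-2 and 1.31 (adjusted p = 0.102) in KO-3. The KO-1 call was lost without the first KO-1 library (1.71, adjusted p = 0.0663), and the KO-4 call without the second KO-4 library (1.35, adjusted p = 0.114), the third KO-4 library (1.35, adjusted p = 0.0889) or the first WT library (1.47, adjusted p = 0.0667). Without the third KO-2 library KO-2 was called (1.58, adjusted p = 0.0396). The authors' deposited FDR was under 0.05 for this intron in every clone (2.02e-07 to 0.0150).

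HARS2 intron 6 (chr5:140695634-140695737, 104 bases) stood at 7.75%, 6.78% and 10.8% in KO-1, 3.97%, 5.37% and 4.67% in KO-2, 6.79%, 5.32% and 3.57% in KO-3, 2.46%, 7.11% and 2.22% in KO-4, against 2.85%, 1.50% and 0.626% in WT. KO-4 overlapped with WT and the other clones did not. It was called in KO-1 alone, at 2.35 ± 0.51 (SE; adjusted p = 0.000653), a call that held without each library but not with limma on log2 odds (2.54, adjusted p = 0.0829), with 1.44, 1.65 and 1.18 in KO-2, KO-3 and KO-4 (adjusted p = 0.145, 0.0875 and 0.261).

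HARS2 intron 7 (chr5:140695846-140696102, 257 bases) stood at 20.9%, 22.2% and 18.8% in KO-1, 25.5%, 18.2% and 21.3% in KO-2, 14.7%, 16.4% and 18.1% in KO-3, 20.9%, 22.7% and 21.5% in KO-4, against 15.7%, 13.2% and 13.8% in WT. Only KO-3 overlapped with WT. It was called in KO-4 alone (0.74 ± 0.22, SE; adjusted p = 0.0467), and that call was lost without each single library apart from the third WT library (adjusted p = 0.0910 to 0.222). With each library centred on its median intron, the call was lost too (0.55, adjusted p = 0.174, quasi-binomial test). The longer listed intron that joins HARS2 exons 7 and 9 and so skips exon 8 (chr5:140695846-140696520) stood at 93.0%, 78.9% and 81.2% in KO-1, 85.8%, 83.7% and 71.0% in KO-2, 78.9%, 59.4% and 60.0% in KO-3, 81.1%, 80.6% and 77.9% in KO-4, against 60.0%, 42.4% and 56.5% in WT. Only KO-3 overlapped with WT. It was called in KO-1 (2.33 ± 0.64, SE; adjusted p = 0.0134), KO-2 (1.87 ± 0.50, adjusted p = 0.0184) and KO-4 (1.89 ± 0.45, adjusted p = 0.00591). An annotated HARS2 exon lies inside this intron and inside intron 7, so their retained reads can come from another HARS2 transcript. The value of the longer intron rests on few reads of its junction, with 2, 6 and 6 in KO-1, 8, 7 and 18 in KO-2, 12, 29 and 20 in KO-3, 12, 14 and 15 in KO-4, against 18, 38 and 20 in WT. Any 1 of the KO-1 libraries, the first or second KO-2 library, the second KO-4 library and, for all 3 clones, the second WT library each ended the call when left out (adjusted p = 0.0502 to 0.249).

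Summed over all its listed introns, the longer intron among them, HARS2 was also the only synthetase gene whose retention was called. Its summed level was 8.96%, 8.33% and 8.42% in KO-1, 9.93%, 7.66% and 7.63% in KO-2, 6.61%, 6.71% and 6.09% in KO-3, 8.08%, 9.83% and 8.30% in KO-4, against 5.76%, 5.08% and 5.23% in WT. No clone library fell into the WT range. The log2 odds change was 0.72 ± 0.10 in KO-1 (SE; adjusted p = 0.00401), 0.68 ± 0.13 in KO-2 (adjusted p = 0.0232), 0.29 ± 0.10 in KO-3 (adjusted p = 0.400) and 0.76 ± 0.11 in KO-4 (adjusted p = 0.00606), in the same test on reads summed per gene. That is 1 of 31 member genes tested called higher for KO-1, 1 of 32 for KO-2 and KO-4, and 0 of 32 for KO-3, where 0.687%, 0.796%, 0.321% and 1.22% of all genes were called higher. None was called lower (0, 0, 0 and 1 at an unadjusted p under 0.05), where all genes gave 0.102%, 0.184%, 0.0617% and 0.268%. In KO-3 the gene-level test left 3 members higher at an unadjusted p under 0.05. The KO-1 call was lost without the first KO-1 library (adjusted p = 0.0666), and the KO-2 call without the first or second KO-2 library or the first or second WT library (adjusted p = 0.0551 to 0.0941).

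Over all introns tested in the 2 histidyl genes (16, 16, 16 and 17) the median log2 odds change was 0.56, 0.71, 0.67 and 1.02 in KO-1 to KO-4 in turn. Among the other members, 0 of 98, 1 of 117, 0 of 124 and 1 of 120 were called, both times MARS intron 14. A test of equality among the 4 clones called 4 of the 134 member introns tested (2.99%), against 6.41% of all introns. HARS2 intron 13, described above, was among these 4, and no intron called against WT was.

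**Figure D2:**
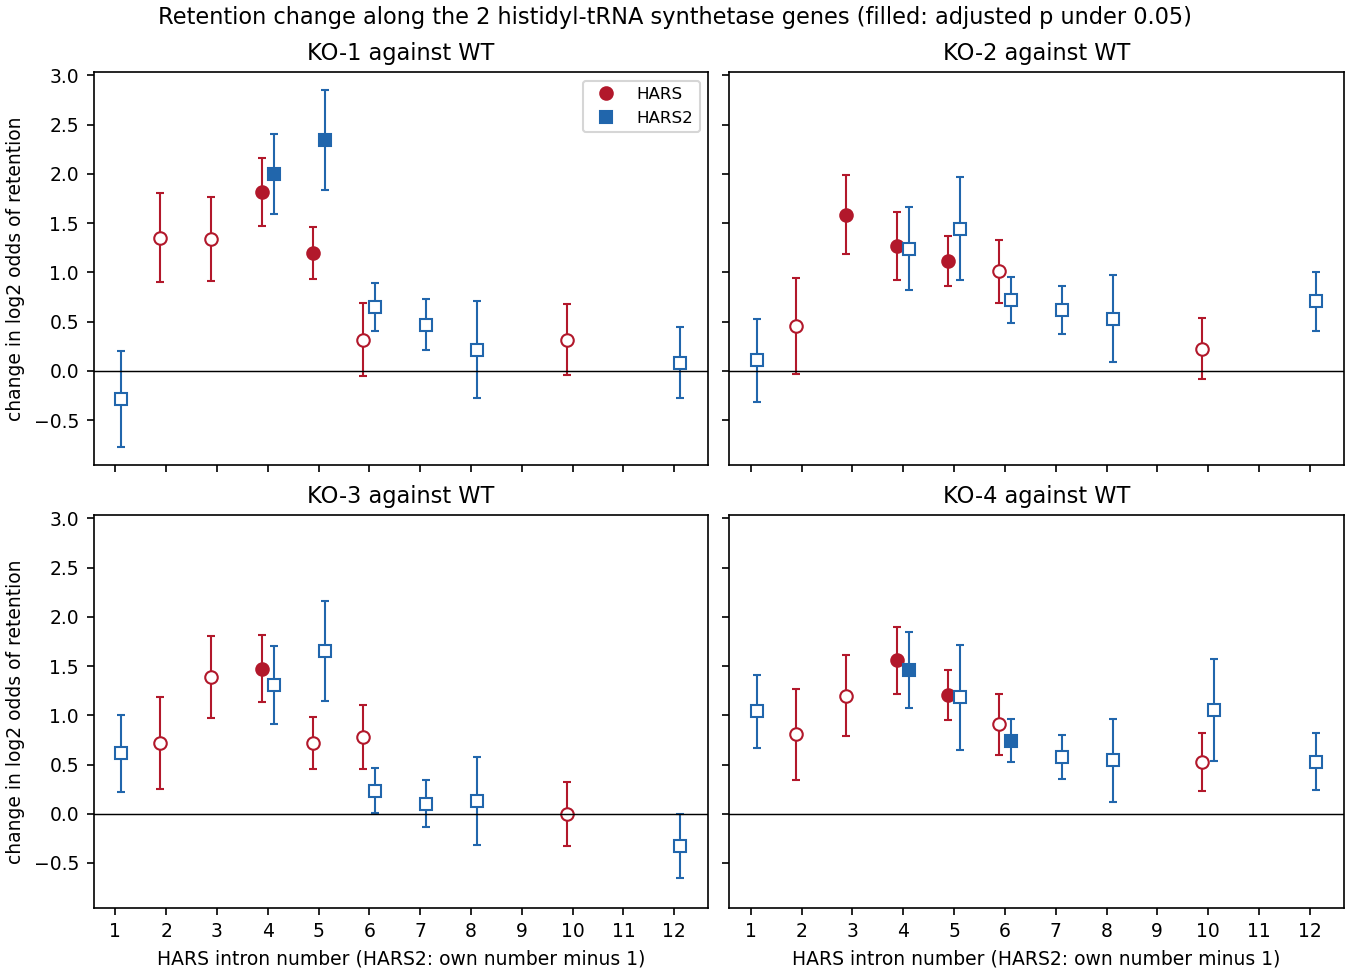
Change in log2 odds of retention (y axis, clone over WT) for each tested intron of HARS and HARS2, by HARS intron number (x axis; HARS2 introns stand at their own number minus 1); whiskers are 1 SE and filled symbols passed the adjusted p of 0.05. The filled symbols sit at HARS introns 3 to 5 and at the HARS2 introns aligned with HARS introns 4 to 6.

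MARS intron 14 (chr12:57512354-57512750, 397 bases, plus strand) holds the annotated microRNA gene MIR6758. Its level was 9.89%, 9.25% and 9.56% in KO-1, 10.9%, 10.9% and 8.83% in KO-2, 11.9%, 10.5% and 6.82% in KO-3, 11.3%, 9.52% and 10.4% in KO-4, against 6.37%, 4.85% and 8.36% in WT. KO-1, KO-2 and KO-4 lay above WT, and KO-3 overlapped with it. It was called in KO-2 (0.70 ± 0.19, SE; adjusted p = 0.0296) and KO-4 (0.75 ± 0.18, adjusted p = 0.00994), with 0.62 in KO-1 (adjusted p = 0.132) and 0.70 in KO-3 (adjusted p = 0.0563). The KO-2 call was lost without the first or second KO-2 library or the first or second WT library (adjusted p = 0.124 to 0.326), and the KO-4 call without the first KO-4 library or the first or second WT library (adjusted p = 0.0512 to 0.158). With each library centred on its median intron, the KO-4 call was lost too (0.58, adjusted p = 0.0547, quasi-binomial test). Without the third WT library KO-1 and KO-3 were called as well (0.85, adjusted p = 0.00467, and 0.93, adjusted p = 0.000430).

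The same stretch of HARS also changed in which exons were joined. Reads that join HARS exon 3 straight to exon 6 and so skip exons 4 and 5 (chr5:140678016-140683099, transcript ENST00000415192.6) rose in all 4 clones. The skipped exons are the 2 HARS exons printed above, 222 bases together, a multiple of 3. This junction was chosen after its values were seen. It had 44, 53 and 37 reads in KO-1, 58, 68 and 68 in KO-2, 88, 88 and 64 in KO-3, 77, 70 and 75 in KO-4, against 20, 28 and 26 in WT. As a share of skipping and including reads at this place (skipping reads over skipping reads plus the mean of the junctions of introns 3, 4 and 5) that came to 13.4%, 16.2% and 13.2% in KO-1, 12.1%, 13.5% and 12.4% in KO-2, 16.3%, 17.0% and 14.9% in KO-3, 15.2%, 14.6% and 16.3% in KO-4, against 4.17%, 4.80% and 5.95% in WT. The lowest clone library stood above the highest WT library by more than the range of WT. KO-1 averaged 14.3 ± 1.63%, KO-2 averaged 12.6 ± 0.714%, KO-3 averaged 16.1 ± 1.08% and KO-4 averaged 15.4 ± 0.865%, against a WT mean of 4.97 ± 0.902% (SD, n = 3 each), which is 2.87, 2.54, 3.24 and 3.09 times WT. An exact two-sided permutation test gave p = 0.1 for each clone, the smallest that 3 against 3 allows.

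**Figure D3:**
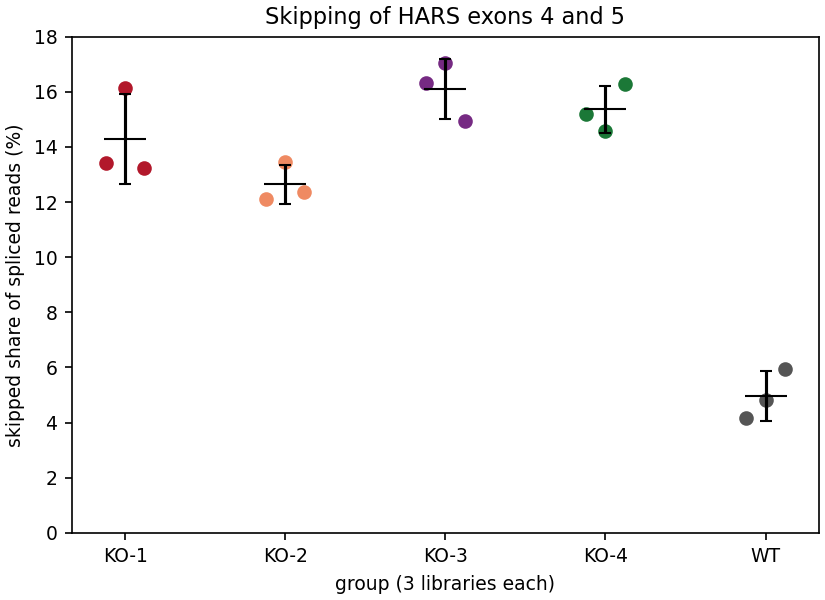
Share of spliced reads that skip HARS exons 4 and 5, in percent (y axis, from 0), in each library by line (x axis); points are libraries, the horizontal bar is the mean and the whisker 1 SD (n = 3). The 12 clone libraries lie between 12.1% and 17.0%, and the WT libraries between 4.17% and 5.95%.

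Tested across all introns as the share of a gene's spliced reads that use 1 junction, a test added after the data were seen, the skipping junction was called in every clone. The log2 odds change was 1.58 ± 0.23 in KO-1 (SE; adjusted p = 4.97e-06), 1.33 ± 0.23 in KO-2 (adjusted p = 8.45e-05), 1.73 ± 0.22 in KO-3 (adjusted p = 1.15e-07) and 1.59 ± 0.22 in KO-4 (adjusted p = 1.02e-06), in the quasi-binomial test. The calls held without each single library (adjusted p at most 0.00356). By p, the junction ranked 74 of 73501, 143 of 74242, 25 of 74033 and 80 of 74198 in KO-1 to KO-4 in turn. The junction of HARS intron 3, which joins the exon before the skipped pair to it, took a smaller share in KO-2 (-0.26, adjusted p = 0.0274), KO-3 (-0.34, adjusted p = 0.00172) and KO-4 (-0.40, adjusted p = 0.000147), and stood at -0.17 in KO-1 (adjusted p = 0.367). The other 2 junctions that include the pair were called in no clone: the junction of intron 4 stood at -0.16, -0.17, -0.16 and -0.19 (adjusted p = 0.0794 to 0.397) and that of intron 5 at -0.05, -0.07, -0.07 and -0.10 (adjusted p = 0.502 to 0.905). HARS2 exon 8 moved the other way: its skipping junction took a smaller share in KO-1 (-1.68 ± 0.49, SE; adjusted p = 0.0309) and stood at -1.11, -0.44 and -1.06 in KO-2, KO-3 and KO-4 (adjusted p = 0.0912, 0.576 and 0.0555). It is the junction of the longer HARS2 intron above, so that retention call and this smaller share rest on the same reads. Spliced reads of HARS as a whole did not pass the test in any clone (log2 changes of -0.01, 0.04, 0.08 and -0.03).

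The test called other member junctions as well. In KO-1, 5 of 493 member junctions were higher and 2 lower, where 0.547% and 0.728% of all junctions were called. In KO-2, 14 of 494 were higher and 9 lower (all junctions 1.04% and 1.43%), in KO-3, 12 of 495 were higher and 17 lower (0.982% and 1.27%), and in KO-4, 16 of 495 were higher and 20 lower (1.75% and 2.57%). Apart from the HARS skipping junction, the largest log2 odds change of a higher junction was 0.80, 0.32, 0.27 and 0.34 for KO-1 to KO-4 in turn. The largest among lower junctions had a size of 1.68 (the HARS2 junction above), 0.55, 0.86 and 0.47. Most calls in KO-2, KO-3 and KO-4 followed the place in the gene: 13 of the 14, 10 of the 12 and 14 of the 16 higher junctions lay in the third of their gene's introns nearest the 3′ end, and 8 of the 9, 13 of the 17 and 17 of the 20 lower ones in the third nearest the 5′ end. The median log2 ratio of spliced reads in the 3′ over the 5′ group of introns, over 28 member genes, was 0.05, 0.14 and 0.14 in KO-1, 0.35, 0.27 and 0.23 in KO-2, 0.29, 0.35 and 0.19 in KO-3, 0.28, 0.33 and 0.24 in KO-4, against 0.06, 0.10 and 0.17 in WT. KO-2, KO-3 and KO-4 lay above WT (exact two-sided permutation p = 0.1 each, the smallest possible) and KO-1 did not (p = 1). HARS intron 4 and the HARS skipping junction were called in KO-1, which overlapped with WT in this weight, and in KO-2, KO-3 and KO-4, which did not. The part of this weight in any of these calls was not tested.

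**Figure D4:**
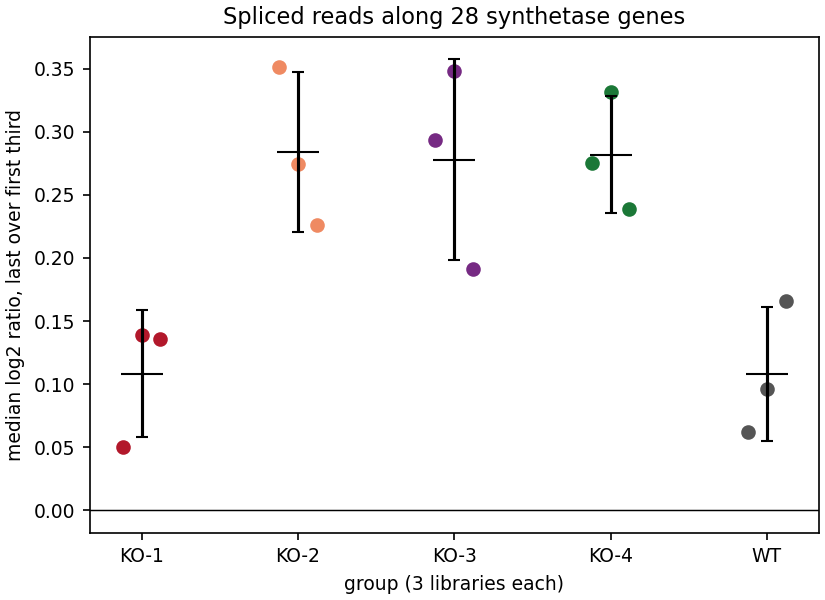
Median over 28 synthetase genes of the log2 ratio of spliced reads in the introns nearest the 3′ end over those nearest the 5′ end, split as above (y axis) in each library, by line (x axis); points are libraries, the horizontal bar is the mean and the whisker 1 SD (n = 3). KO-2, KO-3 and KO-4 lie between 0.19 and 0.35, above the WT range of 0.06 to 0.17, and KO-1 lies between 0.05 and 0.14.

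Spliced reads per gene, summed over the listed introns and scaled between libraries, show how much mature synthetase RNA was sequenced. In KO-4, 22 of 35 members fell and 5 rose, and of the 21 cytosolic or shared genes 17 fell and none rose. In KO-3, 9 members rose and 1 fell, in KO-2, 4 rose and 11 fell, and in KO-1, 3 rose and 3 fell. The background was high: 13.7% and 12.5% of all 9471 genes were called higher and lower in KO-1, 21.9% and 21.1% in KO-2, 15% and 15.6% in KO-3, and 24.6% and 24.2% in KO-4 (limma, Benjamini-Hochberg adjusted p under 0.05). The members' shares were 8.57% and 8.57% in KO-1, 11.4% and 31.4% in KO-2, 25.7% and 2.86% in KO-3, and 14.3% and 62.9% in KO-4. In bulk RNA fewer cells of a type and less RNA per cell cannot be told apart. Of the 37 members, PARS2 was listed for KO-2 alone and FARS2 fell under the mean of 50 reads, so 35 were tested. The median log2 change over them was -0.04, -0.06, 0.06 and -0.25 in KO-1 to KO-4 in turn, with all genes tested at 0.00.

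Most cytosolic and shared enzymes fell in KO-4. Their 21 genes had 1 up and 1 down in KO-1, 1 and 7 in KO-2, 7 and 1 in KO-3, and 0 and 17 in KO-4, with median log2 changes of -0.03, -0.07, 0.08 and -0.27. Within them, the 8 enzymes of the multisynthetase complex had 0 up and 1 down in KO-1, 1 and 4 in KO-2, 2 and 0 in KO-3, and 0 and 7 in KO-4. The 13 outside the complex had 1 and 0, 0 and 3, 5 and 1, and 0 and 10. Without the first KO-3 library, described below, 3 of the 21 were up and 2 down in KO-3. By fold, 7 of 9 class I and 7 of 9 class II cytosolic genes fell in KO-4.

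LARS, leucyl-tRNA synthetase, which also senses leucine for mTORC1, was the member called in 3 clones with 1 direction. It had 5160, 4887 and 4690 scaled reads in KO-1, 5236, 5145 and 5150 in KO-2, 5904, 5392 and 5326 in KO-3, 5159, 4969 and 5534 in KO-4, against 6098, 5999 and 5971 in WT. All 12 clone libraries lay below WT. The log2 change was -0.30 ± 0.05 in KO-1 (SE; adjusted p = 0.000175), -0.22 ± 0.05 in KO-2 (adjusted p = 0.00154), -0.12 ± 0.05 in KO-3 (adjusted p = 0.0774) and -0.21 ± 0.05 in KO-4 (adjusted p = 0.00204, limma). KO-3 was called when scaled by total spliced reads (-0.19, adjusted p = 0.00455) and without the first KO-3 library (-0.17, adjusted p = 0.0255).

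The 3 members with the most spliced reads per intron in WT, TARS, GARS and YARS (threonyl-, glycyl- and tyrosyl-tRNA synthetase), were called lower in KO-4 and higher in KO-3. TARS had 13372, 12660 and 12241 scaled reads in KO-1, 12676, 12697 and 13346 in KO-2, 17756, 14770 and 13763 in KO-3, 9908, 9915 and 10737 in KO-4, against 13330, 13431 and 13723 in WT. KO-4 lay below WT by far more than the spread of either (-0.41 ± 0.06, SE; adjusted p = 1.96e-05, limma), while KO-3 was above it by a smaller margin, and its lowest library was 13763 against the highest WT value of 13723. GARS had 10564, 9809 and 9555 in KO-1, 8286, 8498 and 8935 in KO-2, 15391, 11002 and 10117 in KO-3, 7162, 7055 and 7732 in KO-4, against 8588, 9836 and 9339 in WT. It fell in KO-4 (-0.34 ± 0.09, SE; adjusted p = 0.00496) and rose in KO-3 (0.37 ± 0.09, adjusted p = 0.00464). YARS had 9083, 8068 and 7896 in KO-1, 6911, 6690 and 7353 in KO-2, 11694, 8984 and 8370 in KO-3, 6337, 6340 and 7087 in KO-4, against 7957, 8228 and 8319 in WT. YARS fell in KO-4 (-0.31 ± 0.08, SE; adjusted p = 0.00342, limma) and in KO-2 (-0.23, adjusted p = 0.0300), where the call was lost without the first or second KO-2 library, or without the second or the third WT library (adjusted p = 0.0702 to 0.109). The KO-4 libraries were the lowest for all 3 genes, apart from an overlap with KO-2 for YARS.

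The first KO-3 library was the highest of all 15 for each of these genes. It was also the library with the largest synthetase share of spliced reads, 0.893%, against 0.784% to 0.810% in the other KO-3 libraries and 0.798% to 0.823% in WT. Without it 5 members were higher and 2 lower in KO-3, and the KO-3 calls of TARS (0.08, adjusted p = 0.289) and YARS (0.09, adjusted p = 0.348) were lost, while GARS was still called at 0.19 (adjusted p = 0.0263). The KO-3 calls of TARS and YARS were also lost without any 1 of the WT libraries (adjusted p = 0.0512 to 0.0949) and in a fit on the 6 libraries of the comparison (adjusted p = 0.0894 and 0.0856). Without any 1 WT library 5 members were higher in KO-3, and the fit on 6 libraries left 3. Scaled by total spliced reads, KO-3 had 4 members up and 5 down, and the share of higher genes among all called moved from 49.0% by the median ratio to 25.7%. The count in KO-3 thus depends on that library, on each WT library, on the libraries fitted and on the scaling, while by total spliced reads KO-4 still had 5 members up and 21 down.

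Among other cytosolic genes IARS, isoleucyl-tRNA synthetase of the complex, chosen after its values were seen, had the largest cytosolic change. It had 16874, 15451 and 14677 scaled reads in KO-1, 12483, 12566 and 13058 in KO-2, 16730, 14930 and 14511 in KO-3, 10515, 10297 and 11271 in KO-4, against 14580, 15900 and 15806 in WT. KO-4 and KO-2 lay below WT, with log2 changes of -0.53 ± 0.06 (SE; adjusted p = 1.21e-07) and -0.28 ± 0.06 (adjusted p = 0.000434), and KO-1 and KO-3 overlapped with it. The complex members DARS and KARS (aspartyl and lysyl) and FARSB and WARS outside it (a phenylalanyl subunit and tryptophanyl) fell in both KO-2 and KO-4. QARS, the glutaminyl enzyme of the complex, was the 1 complex member that rose in KO-2 (0.22, adjusted p = 0.000862), where 4 others fell. It also rose in KO-3 (0.15, adjusted p = 0.0229), and stood at 0.03 in KO-4 (adjusted p = 0.605).

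**Figure D5:**
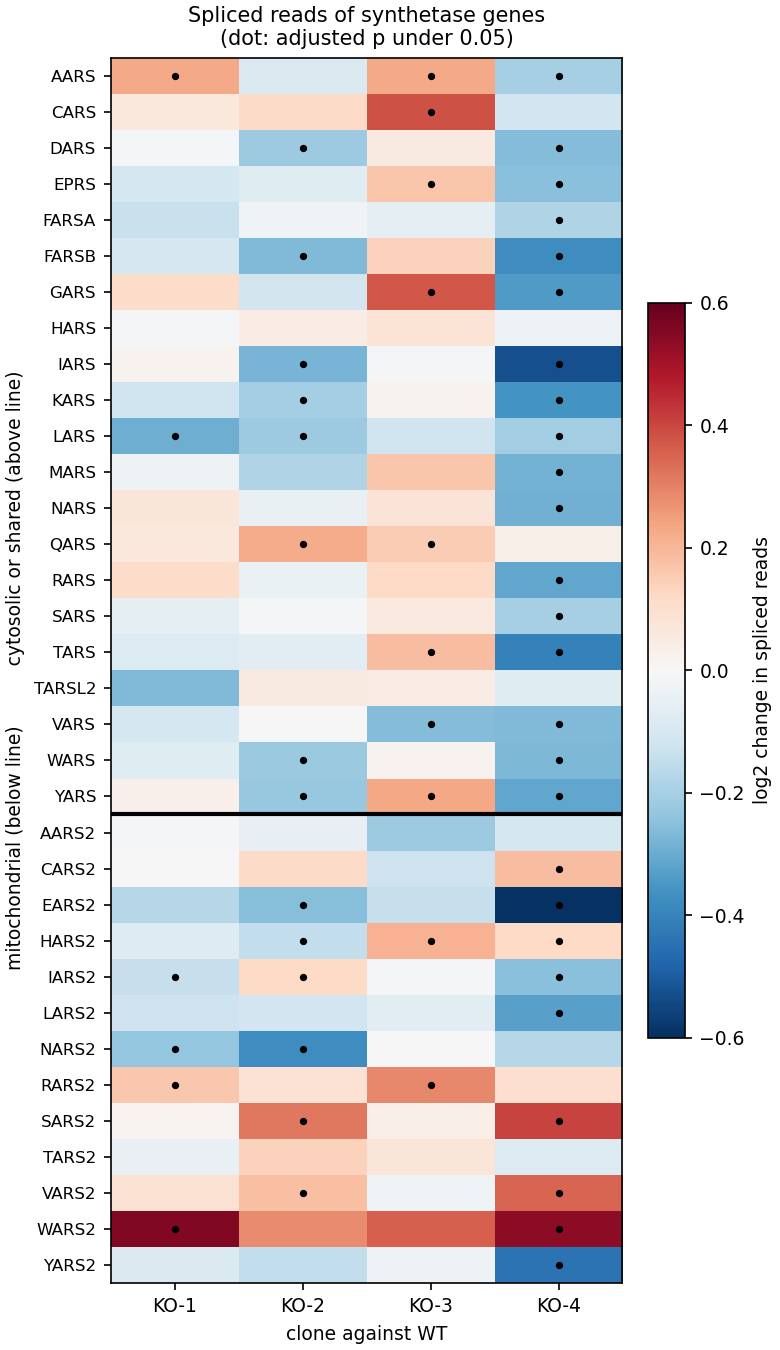
Log2 change in spliced reads, clone over WT (colour, blue lower and red higher), for synthetase genes, 1 row each (y axis, cytosolic or shared above the line, mitochondrial below) in each clone (x axis); a dot marks an adjusted p under 0.05. The KO-4 column is blue for 20 of the 21 cytosolic or shared genes, and the mitochondrial genes are mixed in every column.

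The mitochondrial enzymes moved in both directions. Of 14 tested, 2 rose and 2 fell in KO-1, 3 and 4 in KO-2, 2 and 0 in KO-3, and 5 and 5 in KO-4, with median log2 changes of -0.04, 0.02, -0.01 and -0.09. Of all genes, 13.7% rose and 12.5% fell in KO-1, 21.9% and 21.1% in KO-2, 15% and 15.6% in KO-3, and 24.6% and 24.2% in KO-4. The rises in KO-2 and KO-4 include SARS2 and VARS2, whose reads are shared with other genes as described below. EARS2, mitochondrial glutamyl-tRNA synthetase and chosen after its values were seen, had 842, 845 and 844 scaled reads in KO-1, 770, 809 and 806 in KO-2, 836, 861 and 895 in KO-3, 607, 588 and 698 in KO-4, against 952, 904 and 995 in WT. All clone libraries lay below WT, and the change was called in KO-4 (-0.59 ± 0.07, SE; adjusted p = 6.01e-07, limma) and KO-2 (-0.26 ± 0.07, adjusted p = 0.00645). YARS2 (-0.45, adjusted p = 0.000424), LARS2 (-0.33, adjusted p = 0.00576) and IARS2 (-0.25, adjusted p = 6.4e-05) also fell in KO-4. HARS2, the gene with the retained introns, had -0.15 in KO-2 (adjusted p = 0.0177), 0.21 in KO-3 (adjusted p = 0.00259) and 0.12 in KO-4 (adjusted p = 0.0464).

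SARS2 and VARS2 rose in KO-2 and KO-4, with log2 changes of 0.31 (adjusted p = 0.00261) and 0.41 (adjusted p = 0.000200) for SARS2 and 0.18 (adjusted p = 0.0112) and 0.35 (adjusted p = 2.14e-05) for VARS2. The tables give 14 of the 19 SARS2 introns and 24 of the 28 VARS2 introns a second gene name, so these reads cannot be given to 1 gene. On the introns with 1 name none of these calls was kept, with SARS2 at 0.21 and 0.27 (adjusted p = 0.186 and 0.0800) and VARS2 at -0.003073 and 0.06 (adjusted p = 0.989 and 0.768).

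The 3 members with the fewest reads per intron in WT were WARS2, AARS2 and TARSL2. WARS2, mitochondrial tryptophanyl-tRNA synthetase, had 126, 143 and 196 scaled reads in KO-1, 147, 107 and 128 in KO-2, 148, 126 and 126 in KO-3, 157, 126 and 172 in KO-4, against 117, 91.6 and 104 in WT. All libraries of KO-1, KO-3 and KO-4 lay above WT. It was called in KO-1 (0.55 ± 0.17, SE; adjusted p = 0.0167, limma) and KO-4 (0.54 ± 0.17, adjusted p = 0.0106), and either call was lost without the third library of that clone (adjusted p = 0.127 and 0.0584) or the second WT library (adjusted p = 0.0801 and 0.0571). AARS2, mitochondrial alanyl-tRNA synthetase, held 302 to 405 scaled reads in the clones and 351 to 414 in WT. TARSL2, which encodes a further threonyl-tRNA synthetase, held 194 to 297 in the clones and 269 to 293 in WT, and neither was called in any clone.

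The promoters of some members share a letter motif, in all but YARS2 those of cytosolic or shared enzymes. The transcription factor ATF4 is known to raise many cytosolic synthetase genes during amino acid shortage through the C/EBP-ATF response element, searched here as TGATGNAA on both strands. It was found in 8 of the 29 member genes with a RefSeq promoter window (GRCh38.p14, 250 bases before to 50 after the start), or 27.6%, against 1217 of 27305 genes (4.46%). The matches follow with 10 bases on each side, 5′ to 3′ on the gene's strand, with the motif in capitals, read as TTGCATCA or TTTCATCA where it lies on the other strand.
AARS: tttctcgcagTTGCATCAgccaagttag
CARS: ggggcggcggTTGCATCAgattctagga
GARS: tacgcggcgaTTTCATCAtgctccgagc
IARS: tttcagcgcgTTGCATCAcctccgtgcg
MARS: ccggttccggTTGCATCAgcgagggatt
NARS: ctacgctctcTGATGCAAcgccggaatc
TARS: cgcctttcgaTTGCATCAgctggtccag
YARS2: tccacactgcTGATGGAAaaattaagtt
These stretches lie at chr16:70289676-70289703 (minus strand) for AARS, chr11:3057408-3057435 (minus) for CARS, chr7:30594835-30594862 (plus) for GARS, chr9:92293693-92293720 (minus) for IARS, chr12:57488054-57488081 (plus) for MARS, chr18:57621805-57621832 (minus) for NARS, chr5:33440957-33440984 (plus) for TARS and chr12:32756077-32756104 (minus) for YARS2. The 8 genes with the motif had 1 up and 0 down in KO-1, 0 and 1 in KO-2, 4 and 0 in KO-3, and 0 and 7 in KO-4, with median log2 changes of 0.04, -0.10, 0.18 and -0.31. The 19 tested members with a window and no match had 2 and 2, 3 and 6, 4 and 0, and 4 and 10, with medians of -0.07, -0.02, 0.06 and -0.18. No factor binding was measured, and a match is no evidence of a site in use.

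Other genes around tRNA charging were counted by list. As a background, 13.7% of all genes tested were called higher and 12.5% lower in KO-1, 21.9% and 21.1% in KO-2, 15% and 15.6% in KO-3, and 24.6% and 24.2% in KO-4. Of 29 genes known as ATF4 targets outside the synthetases, 24 were tested, with 3 up and 1 down in KO-1, 4 and 7 in KO-2, 8 and 1 in KO-3, and 0 and 12 in KO-4, and medians of 0.07, -0.22, 0.27 and -0.32. The first KO-3 library stood apart here too: it was the highest of all 15 libraries for 22 of the 24 genes, beside 15 of the 35 synthetases and 1205 of all 9471 genes. ASNS, asparagine synthetase, had 13417, 6892 and 6357 scaled reads in KO-3, against 7032, 8125 and 6841 in WT. Without that library, a setting added for these lists after the data were seen, 5 of the 24 rose and 4 fell in KO-3, with a median of 0.03, and 1 of the 8 synthetase genes with the motif rose, with a median of 0.06. SLC38A2, a neutral amino acid transporter, stood at -0.41, -0.37, 0.43 and -0.59 in KO-1 to KO-4 in turn, all called (adjusted p = 0.00320, 0.00389, 0.00214 and 3.42e-05, limma), with 0.27 in KO-3 without its first library (adjusted p = 0.0160). SLC7A1, a cationic amino acid transporter, fell in KO-2 (-0.93, adjusted p = 2.1e-06), KO-3 (-0.42, adjusted p = 0.0123) and KO-4 (-0.59, adjusted p = 0.000384). DDIT3, the stress factor CHOP, rose in KO-1 (0.63, adjusted p = 0.00170), KO-2 (0.42, adjusted p = 0.0182) and KO-3 (0.66, adjusted p = 0.00115), with 0.07 in KO-4 (adjusted p = 0.698).

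Of the scaffolds of the complex, AIMP2 rose in KO-2 (0.21) and KO-3 (0.20) and fell in KO-4 (-0.17), EEF1E1 rose in KO-3 (0.20) and fell in KO-4 (-0.28), and AIMP1 was called in no clone. Without the first KO-3 library neither KO-3 call was kept (adjusted p = 0.0751 for AIMP2 and 0.0738 for EEF1E1). Translation elongation factors had 1 up and 2 down of 11 in KO-1, 1 and 2 in KO-2, 3 and 1 in KO-3 (1 and 1 without the first KO-3 library), and 0 and 8 in KO-4. TSFM, a mitochondrial elongation factor, fell in KO-1 (-0.18, adjusted p = 0.0396), KO-2 (-0.19, adjusted p = 0.0181) and KO-4 (-0.41, adjusted p = 1.66e-05). EEF1G rose in KO-3 (0.27, adjusted p = 0.000795) and fell in KO-4 (-0.20, adjusted p = 0.00401), and EEF1A2 rose in KO-2 (0.47, adjusted p = 3.02e-07) and fell in KO-3 (-0.21, adjusted p = 0.00545). The other tRNA charging partners, which act on tRNA before or after it is charged, had 0 up and 2 down of 15 tested in KO-1, 1 and 2 in KO-2, 1 and 0 in KO-3, and 1 and 8 in KO-4. Of all genes, 13.7% were up and 12.5% down in KO-1, 21.9% and 21.1% in KO-2, 15% and 15.6% in KO-3, and 24.6% and 24.2% in KO-4. Among them DTD1, which removes D-amino acids from tRNA, rose in KO-4 (0.27, adjusted p = 0.0240), GATB, a subunit of the mitochondrial glutamyl-tRNA amidotransferase, fell in KO-1 (-0.31, adjusted p = 0.0276), and RTCB, the tRNA ligase, fell in KO-4 (-0.21, adjusted p = 0.00466).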

How the data were processed

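The authors deposited 1 intron table per clone, holding junction read numbers, length-normalised retention fractions, a p-value and FDR, and a difference of mean levels held here as a score; these cells list 3 libraries per group. Per the submitters' processing notes, cutadapt 2.0 and STAR 2.7.1a were used with hg38, while neither the junction counter nor its test is stated there. The list named SAMPLE_1 was read as the clone. Retention was tested from the deposited read numbers with a quasi-binomial model whose dispersion was moderated by limma 3.58.1 (R 4.3.3) and floored at 1, and junction shares likewise. Spliced reads were summed per gene over introns listed for every clone, with a mean of at least 50, scaled by median ratios, and fitted with limma on log2(scaled reads + 0.5) over all 15 libraries. A fold change is on that scale. The planned quasi-likelihood count test was not run, because the cells hold lists that could not be declared as counts. Permutation tests used scipy 1.17.1 and pandas 2.3.3 in Python 3.11.15. Scripts were tested on simulated data. No 2 libraries held identical spliced reads.

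A kit that marks strand was used, per the labels' protocols, and whether counting used strand is not stated. Members and lists were chosen with earlier results of these data known. The rule for named features took every member intron called in any clone, the 6 with the highest WT level (given as ranges), the 6 with the smallest median p, genes called in at least 3 clones with 1 direction, and the 3 genes with the most and the fewest spliced reads per intron; of other lists, the 3 genes with the smallest median p. Alternatives covered read filters, scaling, other tests, thresholds and leaving out each library. Intervals cover the spread between libraries; no molecular identifiers are stated, so reads may not be independent molecules. Gene symbols are those of the tables (HARS is now HARS1). The values of 1 synthetase gene are not reported here by name, although the counts over the family include it.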

Additional observations from a re-analysis of the deposited data

Results flagged for a closer look

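Several results differed between the clones themselves, by a test of equality among the 4 clones in the same model, without WT. Spliced reads differed among the clones for 30 of the 35 synthetase genes tested, beside 75.4% of all genes. For genes named above the adjusted p was 5.19e-07 for TARS, 2.21e-06 for HARS2, 4.89e-06 for GARS, 1.40e-05 for YARS, 2.35e-05 for EARS2, 3.15e-05 for VARS2, 0.000167 for SARS2, 0.0339 for LARS and 0.0366 for TARSL2 (limma).

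Retention differed among the clones for 4 of the 134 member introns tested, beside 6.41% of all introns (quasi-binomial test). NARS intron 12 (adjusted p = 0.0183) had mean levels from 16.1% (KO-1) to 20.7% (KO-2) across the clones, and 18.1% in WT. QARS intron 4 (adjusted p = 0.00730) averaged 7.43%, 7.73%, 6.71% and 10.2% in the clones, and 8.05% in WT. HARS2 intron 11 (adjusted p = 0.0175) averaged 3.71%, 1.88%, 0.858% and 2.68% in the clones, and 1.40% in WT, and HARS2 intron 13 (adjusted p = 0.0263) averaged 5.57%, 8.38%, 4.39% and 7.40% in the clones, and 5.30% in WT. The HARS and HARS2 introns and the MARS intron called against WT were not among these 4, which does not show that the clones share 1 level.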

How the results depend on the processing

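No paired analysis was possible because the deposited lists carry no replicate numbers, so no replicate block could be fitted. The planned quasi-likelihood count test, its scalings and its alternatives for spliced reads were not run. A minimum of 50 reads left 12, 17, 16 and 17 member introns to test in KO-1 to KO-4 in turn, without HARS intron 4. Of these, 2 were called higher for KO-2, 3 for KO-4 and 0 for KO-1 and KO-3. An intron called in the main test with fewer reads was not tested there. Limma on log2 odds called 0 member introns higher in every clone, with 16, 17, 6 and 16 at an unadjusted p under 0.05. Over all introns limma on log2 odds called 41, 7, 12 and 8 higher. The authors' deposited FDR gave 8 higher of 114 for KO-1, 10 of 133 for KO-2 and 6 of 140 for KO-3, with 1 lower for KO-2. It also passed HARS2 intron 6 in KO-2 and KO-3, HARS2 intron 7 in KO-2 and MARS intron 14 in KO-3, where the main test did not. An adjusted p of 0.01 left 2 higher in KO-2, no read filter gave 2 higher in KO-3, and centring gave 4 higher in KO-3 and 1 lower in KO-2. Shares over all introns are not given for the minimum of 50 reads, the deposited FDR or these settings. These counts alone therefore do not set the members apart from other introns. Among the clones, a minimum of 50 reads gave 2 of 17 introns tested, in place of 4 of 134. For junction shares, a minimum of 50 reads left 3 higher and 1 lower in KO-1. For spliced reads, scaling by total gave 5 lower in KO-1 and 4 higher and 5 lower in KO-3, a fit on the 6 libraries of the comparison gave 1 lower in KO-1 and 3 higher in KO-3, and introns with 1 gene name left 2 higher for KO-2 and 3 for KO-4, with VARS2 turning in KO-2 to -0.003073.

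Leaving out 1 library at a time, introns called higher ran from 3 to 8 for KO-1, 1 to 7 for KO-2, 0 to 4 for KO-3 and 2 to 11 for KO-4, with 0 to 1 lower for KO-4; all introns called higher rose most without the third WT library, to 522, 601, 209 and 1043. Genes with higher summed retention ran from 0 to 4, 0 to 4, 0 to 1 and 1 to 5. Junction shares ran from 3 to 5, 7 to 14, 6 to 13 and 7 to 18 higher, and 1 to 3, 2 to 8, 8 to 19 and 9 to 28 lower. Spliced reads ran from 1 to 2, 3 to 4, 5 to 10 and 2 to 5 higher, and 1 to 5, 9 to 11, 1 to 2 and 18 to 22 lower, and 27 to 31 genes differed among the clones. Over single introns and genes, 537 alternatives kept the direction and the side of the threshold, 89 lost the call, 23 gained it and 1 turned the direction. The cause was not tested. Low retained reads limit what can be seen: 114, 133, 140 and 137 member introns had enough reads to be tested in KO-1 to KO-4 in turn, and a change in an intron not tested in a comparison was not detectable there at this depth.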
